A study of Mus musculus with 8 samples.

Results

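Expression of 8 genes of extracellular nucleotide signalling was followed through the last steps of basophil development in mouse bone marrow. The genes were the G protein-coupled receptors P2ry2, P2ry1 and P2ry14, the ATP-gated channels P2rx1, P2rx4 and P2rx7, and the cell-surface enzymes Entpd1 and Enpp3, out of 55487 genes in each library's table. They were chosen by name from a table of TPM (each transcript's share of the library, scaled for its length) in the same 8 libraries, with earlier results of these data known, so their levels and differences are given as a description and carry no test here. RNA was sequenced from sorted pre-Baso and basophils of C57BL/6J mice, each from littermate control (wild type) and Nfil3-deficient (Nfil3-depleted, floxed out) animals, with 2 biological replicates in each of the 4 groups. Nfil3 is a basic leucine zipper transcription factor. All cells were sorted from bone marrow as lineage-negative, CD34-negative, ckit-negative and CD200R3-positive. Pre-Baso stained high and basophils intermediate for the IgE receptor alpha chain. The labels name neither the Cre line that removed the floxed gene nor the age or number of animals behind a library, and the design text says only that the duplicates were biological, so spread and p-values measure only the difference between these samples.

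Cells release ATP, ADP, UTP and UDP-sugars when they are activated or damaged, and neighbouring cells read these nucleotides through 2 receptor families. P2Y receptors couple to G proteins: P2ry2 responds to ATP and UTP and P2ry1 to ADP, both through phospholipase C and calcium release, while P2ry14 responds to UDP-sugars through inhibitory G proteins. P2X receptors are channels opened by ATP, among which P2rx1 is known from platelets and smooth muscle, P2rx4 is found in lysosomes and at the surface of many immune cells, and P2rx7 opens at high ATP and activates the NLRP3 inflammasome. Entpd1 (CD39) degrades extracellular ATP and ADP. Enpp3 (CD203c) is a phosphodiesterase of nucleotides whose surface protein is a widely used activation marker of human basophils.

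The stretch upstream of the annotated start is shown for P2ry2 and P2rx1, since these are a receptor with higher and a receptor with lower TPM in Nfil3-deficient than in control basophils. Sequences are from RefSeq, build GRCm38.p6, 5′ to 3′ on the gene's strand, and capitals mark a match to a GATA motif. All 8 genes matched an entry, with 14 start sites between them. P2ry2 is shown at chr7:101012054-101012303 on the minus strand and P2rx1 at chr11:72998895-72999102 on the plus strand, the latter shortened to 208 bases where an annotated exon begins.
P2ry2: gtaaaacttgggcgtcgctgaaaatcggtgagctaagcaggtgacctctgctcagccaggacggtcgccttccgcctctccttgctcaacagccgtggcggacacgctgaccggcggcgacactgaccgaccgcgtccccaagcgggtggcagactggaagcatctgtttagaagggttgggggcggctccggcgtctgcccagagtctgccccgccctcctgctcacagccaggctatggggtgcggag
P2rx1: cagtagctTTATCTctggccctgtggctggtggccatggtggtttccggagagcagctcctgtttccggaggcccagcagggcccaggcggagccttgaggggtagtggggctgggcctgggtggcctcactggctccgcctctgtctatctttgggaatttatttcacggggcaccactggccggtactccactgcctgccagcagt
Motifs of 2 kinds were searched on both strands in the 250 bases before each start, after the levels had been seen: the D-box TTANGTAA, a word bound by Nfil3, and the GATA words AGATAA and TGATAA. The D-box word was found in 0 of the 14 windows, against 2.06% of 32817 windows of the same length over all genes. At so low a share, 14 windows, some of them overlapping, are too few to show that the word is rarer here. A GATA word was found in 4 windows of 3 genes (P2ry14, P2rx1 and P2rx7), against 16.6% of all windows. P2ry2 held neither word in the stretch shown. The start of its upstream annotated first exon (101012408-101012866), described below, was not among those searched. These are matches of letters only.

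Libraries held 271.7 to 398.04 megabases assigned to annotated transcripts, of which 154.5 to 223.4 megabases fell to protein-coding genes. The tables give no read counts. Protein-coding genes took 18.7% to 22.4% of the TPM, so a TPM of 1 is a larger share of messenger RNA than usual. Nfil3 had 6.61 and 7.65 TPM in control pre-Baso, 20.5 and 22.5 in control basophils, and 0 to 1.32 in the 4 Nfil3-deficient libraries. Mcpt8, a basophil granule protease gene, had 969 to 7888 TPM in control and 1.98 to 6.04 TPM in Nfil3-deficient libraries. The labels do not name the Cre line, so in every genotype difference an effect of the allele that carries the Cre, on Mcpt8 or on other genes, and an effect of the loss of Nfil3 cannot be told apart. The labelled cell type was present in all libraries, with 10 basophil markers such as Prss34 summing to 20835 to 35071 TPM in pre-Baso and 5341 to 11069 TPM in basophils, which did not overlap. Of the other cell types, neutrophil markers (10 genes) summed to 730 to 1160 TPM in pre-Baso and 1278 to 2374 TPM in basophils. Monocyte and macrophage markers (10 genes) summed to 21.2 to 34.5 and 59.2 to 175 TPM, and erythroid markers (8 genes) to 29.5 to 114 and 129 to 167.5 TPM. The library of control basophil replicate 1 stood apart with 2665 TPM of summed eosinophil markers (8 genes), against 15.8 to 193.6 TPM in the other 7. Megakaryocyte and platelet markers (11 genes) summed to 59.9 to 100.3 TPM in pre-Baso and 70.6 to 92.4 TPM in basophils. Of these, Itga2b had 58.6 to 78.5 TPM and Pf4 reached 30.9 TPM in control pre-Baso replicate 2, while Ppbp, Tubb1, Vwf and Gp6 had at most 1.14 TPM and Treml1 had 0 TPM in all libraries. Mast cell markers (7 genes) summed to at most 3.03 TPM, B and plasma cell markers (8 genes) to 9.98 to 23.8 TPM, and T and NK cell markers (8 genes) to 130.1 to 187 TPM in pre-Baso and 54.1 to 76.8 TPM in basophils, of which Nkg7 held 53.5 to 186 TPM over all libraries. In sorted bulk RNA, fewer cells of a type and less RNA per cell cannot be told apart.

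The order of the 8 genes was nearly the same in every library. P2rx4 was the highest in all 8 libraries, with 22.7 to 39.2 TPM. P2ry1 (17.2 to 25.7 TPM), P2ry14 (10.8 to 30.03 TPM) and P2rx1 (9.59 to 26.9 TPM) came next, and their ranges overlapped. P2rx7 (4.54 to 10.2 TPM) and P2ry2 (1.09 to 9.89 TPM) were lower, with P2ry2 above P2rx7 only in the 2 Nfil3-deficient basophil libraries. Entpd1 had 0.0195 to 1.22 TPM, and Enpp3 was listed at 0 in 7 libraries. P2ry2 had the widest relative range of the 6 genes above the filter described next, 9.05-fold from the lowest to the highest library.

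**Figure D1:**
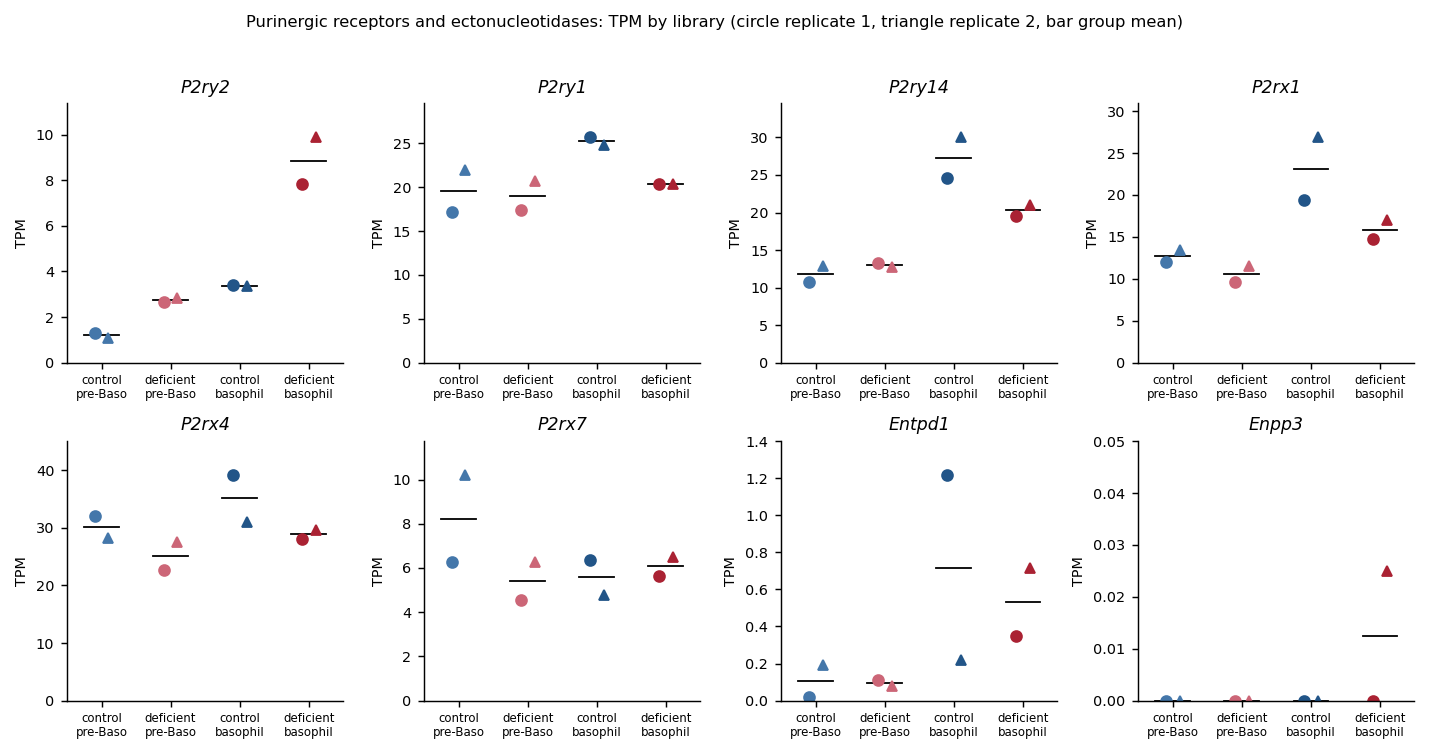
TPM of each gene (vertical axes, 1 scale per gene, from 0) in the 4 groups, with circles for replicate 1, triangles for replicate 2 and bars for group means. P2ry2 steps up from 1.21 TPM in control pre-Baso to 8.85 TPM in Nfil3-deficient basophils, whereas P2ry14 and P2rx1 are highest in control basophils.

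Differences between groups were computed on log2(TPM + 1) with limma over all genes that reached 1 TPM in at least 2 libraries, 12511 genes. Of the 8 genes, 6 passed this filter and Entpd1 and Enpp3 did not. Each difference is given with its standard error (SE) from the fit of all 8 libraries. Whether the libraries of 2 groups overlap is also given, as description only. With so few libraries per group, separation is often met without a difference, and the share of all genes that separated is not given here. The addition of 1 understates the change of a gene as low as P2ry2.

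P2ry2 (gene at chr7:100996568-101012866, minus strand) was higher in basophils than in pre-Baso and higher in Nfil3-deficient than in control cells of both populations. Its TPM was 1.32 and 1.09 in control pre-Baso, 2.66 and 2.84 in Nfil3-deficient pre-Baso, 3.39 and 3.36 in control basophils, and 7.82 and 9.89 in Nfil3-deficient basophils. No library of one group overlapped another, which with 2 libraries per group is description only. Group means were 1.21 ± 0.162, 2.75 ± 0.128, 3.37 ± 0.0221 and 8.85 ± 1.46 TPM (SD, n = 2 each). In control mice the basophil mean was 2.79-fold the pre-Baso mean, a log2(TPM + 1) difference of 0.99 ± 0.18 (SE), and in Nfil3-deficient mice it was 3.22-fold, a difference of 1.39 ± 0.18. Between genotypes the Nfil3-deficient mean was 2.28-fold the control mean in pre-Baso (0.77 ± 0.18) and 2.62-fold in basophils (1.16 ± 0.18). The genotype difference was larger in basophils than in pre-Baso by 0.40 ± 0.25 on this scale. Neither genotype difference, nor the change between them, was called by limma, and the shares of all genes called are given below. The depth behind these values is low: 1.66 to 9.84 kilobases were assigned to P2ry2 per library.

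Coverage of P2ry2 was also read exon by exon, after the gene's levels were known. Read coverage was summed over transcripts and divided by the library's bases assigned to protein-coding genes, in units of 100 megabases. The segment chr7:100997227-100999031 holds most of the coding sequence, which spans 100997978 to 100999096. There the coverage was 0.377 and 0.230 in control and 0.516 and 0.638 in Nfil3-deficient pre-Baso, and 0.694 and 0.565 in control and 1.32 and 1.38 in Nfil3-deficient basophils. The groups of a population did not overlap in this coding segment, with ratios of Nfil3-deficient to control means of 1.90 in pre-Baso and 2.15 in basophils. The first exon of the leading transcript ENSMUST00000037540 (segment 101011712-101011929) overlapped between genotypes in pre-Baso and not in basophils, with a ratio of 1.01 in pre-Baso and 3.62 in basophils. Upstream of it lies another annotated first exon, used by ENSMUST00000207049 (101012408-101012866). Its coverage was 0.0598 and 0.0488 in control and 0.304 and 0.261 in Nfil3-deficient pre-Baso, and 0.276 and 0.414 in control and 1.21 and 1.61 in Nfil3-deficient basophils. These are ratios of 5.21 in pre-Baso, from a coverage of 0.0543 in control, and 4.09 in basophils. Over whole transcripts, the leading one had 1.10 and 0.819 TPM in control and 0.613 and 1.22 TPM in Nfil3-deficient pre-Baso, which overlapped, and 0.962 and 1.82 TPM in control and 3.97 and 4.20 TPM in Nfil3-deficient basophils, which did not.

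**Figure D2:**
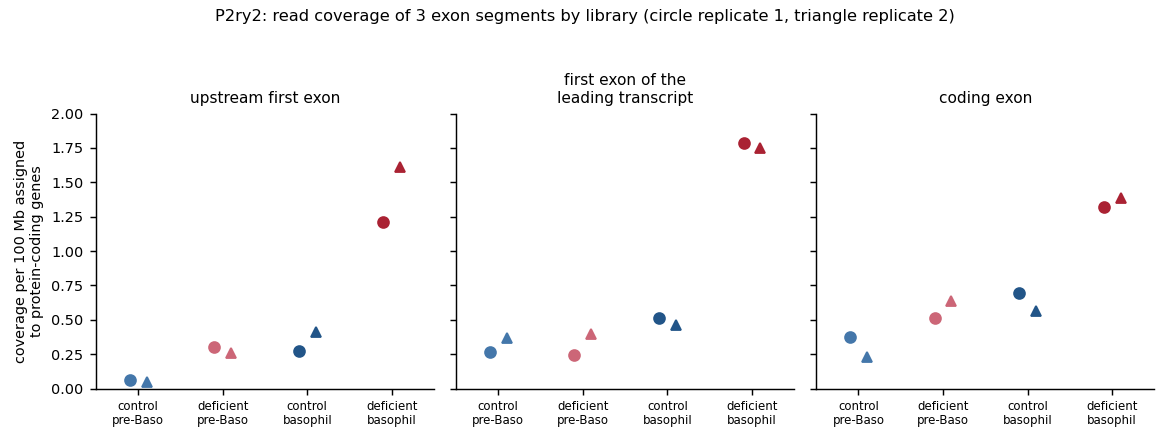
Read coverage per 100 megabases assigned to protein-coding genes (vertical axis, from 0) of 3 segments of P2ry2 in the 4 groups, circles for replicate 1 and triangles for replicate 2. Nfil3-deficient basophils are above the other groups in each segment, and in the upstream first exon control pre-Baso are near 0.

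P2ry14 (chr3:59113855-59153618, minus strand) was higher in basophils than in pre-Baso, and less so in Nfil3-deficient mice. It had 10.8 and 12.8 TPM in control pre-Baso, 13.3 and 12.8 TPM in Nfil3-deficient pre-Baso, 24.6 and 30.03 TPM in control basophils, and 19.5 and 21.0 TPM in Nfil3-deficient basophils. All basophil libraries were above all pre-Baso libraries, and the 2 genotypes overlapped in pre-Baso but not in basophils. The basophil mean was 2.31-fold the pre-Baso mean in control mice (1.14 ± 0.17, SE) and 1.55-fold in Nfil3-deficient mice (0.60 ± 0.17). Nfil3-deficient basophils had 0.743 times the TPM of control basophils (-0.41 ± 0.17), and the difference of the genotype effects was -0.54 ± 0.24. P2ry14 lies inside Med12l on the opposite strand, and the quantification used no strand, so reads of either could be counted for the other where exons overlap. Med12l itself had 0.120 to 0.661 TPM.

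The 3′ end of P2ry14 was also read differently between the populations, a pattern noticed in the coverage and not tested. The last 770 bases of the longest annotated end (59113855-59114624) belong to transcript ENSMUST00000197841 alone. Their coverage was 0%, 13.4%, 3.68% and 0.241% of that of the neighbouring segment 59114932-59115706 in the pre-Baso libraries (control 1 and 2, then Nfil3-deficient 1 and 2). In the same order the basophil libraries had 48.1%, 15.0%, 16.5% and 17.9%. Every basophil library was above every pre-Baso library, but control basophil 2 and control pre-Baso 2 were close to each other, and 48.1% came from the library with the eosinophil markers.

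P2ry1 (chr3:61002795-61008982, plus strand) varied little. It had 17.2 and 21.9 TPM in control pre-Baso, 17.3 and 20.7 TPM in Nfil3-deficient pre-Baso, 25.7 and 24.8 TPM in control basophils, and 20.31 and 20.33 TPM in Nfil3-deficient basophils. Control basophils were above the other 3 groups without overlap, and those 3 groups overlapped. The change with maturation was 0.36 ± 0.17 (SE) in control and 0.09 ± 0.17 in Nfil3-deficient mice. The antisense gene Gm37035 overlaps P2ry1 and had 0.503 to 1.20 TPM.

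P2rx1 (chr11:72999103-73015200, plus strand) was higher in basophils and lower in Nfil3-deficient cells. Its TPM was 12.03 and 13.5 in control pre-Baso, 9.59 and 11.5 in Nfil3-deficient pre-Baso, 19.4 and 26.9 in control basophils, and 14.7 and 17.00 in Nfil3-deficient basophils. The groups did not overlap in any of the 4 comparisons, although the control basophil libraries were far apart. The basophil mean was 1.82-fold the pre-Baso mean in control mice (0.80 ± 0.20, SE) and 1.50-fold in Nfil3-deficient mice (0.55 ± 0.20). Nfil3-deficient means were 0.827 times the control mean in pre-Baso (-0.26 ± 0.20) and 0.685 times in basophils (-0.50 ± 0.20). The value of 26.9 TPM included 12.9 TPM of the shorter transcript ENSMUST00000148964, which had at most 1.13 TPM in the other libraries. For the leading transcript ENSMUST00000021141 alone, control basophils had 18.8 and 13.99 TPM and Nfil3-deficient basophils 13.8 and 15.9 TPM, and these overlapped. P2rx1 is known from platelets, whose marker sums given above overlapped between pre-Baso and basophils, and the part of such cells in these values was not tested.

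P2rx4 (chr5:122707544-122729738, plus strand) had the highest level and little relative change. It had 32.1 and 28.2 TPM in control pre-Baso, 22.7 and 27.5 TPM in Nfil3-deficient pre-Baso, 39.2 and 31.1 TPM in control basophils, and 28.1 and 29.7 TPM in Nfil3-deficient basophils. Nfil3-deficient libraries were below control libraries within each population, by -0.26 ± 0.18 (SE) in both pre-Baso and basophils. The change with maturation was 0.21 ± 0.18 in control mice, where the libraries overlapped, and 0.20 ± 0.18 in Nfil3-deficient mice, where they did not.

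P2rx7 (chr5:122643911-122691432, plus strand), the neighbour of P2rx4 on the same strand, showed no steady direction. It had 6.27 and 10.2 TPM in control pre-Baso, 4.54 and 6.26 TPM in Nfil3-deficient pre-Baso, 6.38 and 4.80 TPM in control basophils, and 5.66 and 6.49 TPM in Nfil3-deficient basophils. Replicates differed by as much as the groups, and the only comparison without overlap was the genotype difference in pre-Baso (-0.51 ± 0.25, SE), where 6.27 and 6.26 TPM all but touched. The maturation difference was -0.47 ± 0.25 in control and 0.15 ± 0.25 in Nfil3-deficient mice.

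The cell-surface enzymes were at the limit of what these libraries measure. Entpd1 (chr19:40612366-40741602, plus strand) had 0.0195 and 0.190 TPM in control pre-Baso, 0.111 and 0.0811 TPM in Nfil3-deficient pre-Baso, 1.22 and 0.219 TPM in control basophils, and 0.350 and 0.716 TPM in Nfil3-deficient basophils. All basophil libraries were above all pre-Baso libraries, and the genotypes overlapped in both populations. These values rest on 0.0510 to 2.27 kilobases per library. Entpd1 was highest in the control basophil library that also had the most monocyte and macrophage (175 TPM summed) and eosinophil (2665 TPM summed) markers, and without that library control basophils were represented by 0.219 TPM, against 0.190 TPM in the higher control pre-Baso library. The part of those markers in the result was not tested. The processed pseudogene Gm8783 lies within Entpd1 on the same strand and had 3.21 to 7.38 TPM, more than Entpd1 in every library. Enpp3 (chr10:24772406-24842823, minus strand) was listed at 0 in 7 libraries and at 0.0250 TPM in Nfil3-deficient basophil replicate 2, where 0.0612 kilobases were assigned. Transcripts of Enpp3 were therefore not detectable at this depth in either population or genotype, apart from that trace.

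Counts over the 6 fitted genes are set beside the share of all 12511 genes called by limma at an adjusted p under 0.05, and nothing is read from them because the genes were chosen with these levels known. In control mice 3 of the 6 (P2ry2, P2ry14 and P2rx1) were called between pre-Baso and basophils, all 3 higher in basophils, against 22.6% of all genes (12.6% higher and 10.0% lower). In Nfil3-deficient mice 1 of 6, P2ry2, was called higher, against 10.9% of all genes (6.79% higher and 4.11% lower). Between genotypes 0 of 6 were called in pre-Baso, against 0.0639% of all genes, and 0 of 6 in basophils, against 0.0560%. For the change of the genotype effect from pre-Baso to basophils 0 of 6 were called, against 0% of all genes. Median differences over the 6 genes were 0.58 and 0.37 for maturation in control and Nfil3-deficient mice, where all genes had medians of 0.08 and 0.10. For genotype in pre-Baso and basophils they were -0.14 and -0.28, where all genes had -0.04 and -0.01. P2rx1 lost its call in control mice without control pre-Baso replicate 1, control pre-Baso replicate 2 or control basophil replicate 2, and also with no filter on low values and with only the 2 groups compared. P2ry14 gained a call in Nfil3-deficient mice after rescaling to protein-coding genes, on FPKM and with a filter of 5 TPM, so that 2 genes were called there in place of 1. P2ry2 lost its call in Nfil3-deficient mice without Nfil3-deficient pre-Baso replicate 1. The genome-wide split in Nfil3-deficient mice depended on scaling, with 849 genes higher and 514 lower as fitted and 986 higher and 1029 lower after quantile normalization, while the 1363 calls there became 20 and 665 without Nfil3-deficient pre-Baso replicate 1 or 2 and 253 and 693 without Nfil3-deficient basophil replicate 1 or 2. In control mice the 2832 calls became 1397 and 1810 without control pre-Baso replicate 1 or 2 and 1668 without control basophil replicate 1.

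**Figure D3:**
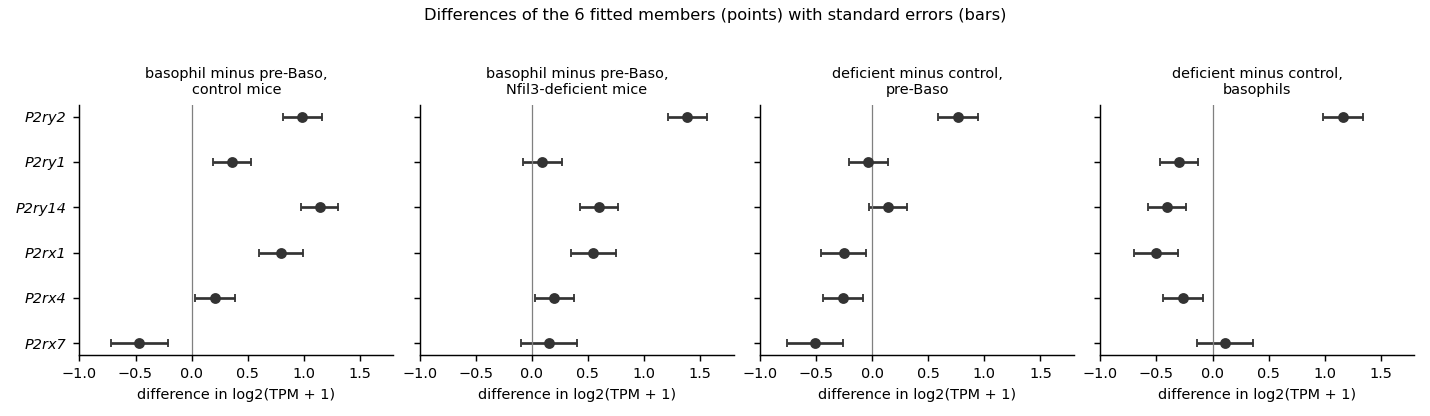
Differences in log2(TPM + 1) (horizontal axes) of the 6 fitted genes in 4 comparisons, with points for estimates and bars for standard errors. P2ry2 lies to the right of 0 in each panel, and in basophils it is at 1.16 while P2ry14 and P2rx1 are at -0.41 and -0.50 between genotypes.

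The split of each gene's TPM over its annotated transcripts was tested for the 6 genes that reached 1 TPM in all libraries. The share of the leading transcript, which the choice of the genes did not use, was compared between 4 and 4 libraries by a two-sided exact permutation test over 70 assignments, with adjustment over 6 genes. Between basophils and pre-Baso the differences ranged from -15.7 percentage points for P2ry14 (65.6% ± 14.2 against 81.4% ± 14.2, SD, n = 4) to 21.0 points for P2rx4 (72.0% ± 2.95 against 51.0% ± 38.0, SD, n = 4). None passed, with exact adjusted p-values of 0.549 to 0.886. Between genotypes they ranged from -20.4 points for P2ry2 (39.8% ± 11.8 in Nfil3-deficient and 60.2% ± 24.5 in control libraries, SD, n = 4) to 8.80 points for P2rx1, with exact adjusted p-values of 0.6 to 0.886. The smallest exact p that 70 assignments can give is 0.0286, which for a single gene becomes 0.171 after adjustment, so a gene could pass only if at least 4 of the 6 reached that minimum. The smallest unadjusted exact p found was 0.2. These tests therefore do not show that the shares were alike. Single libraries set much of this spread. In P2rx4 the leading transcript ENSMUST00000031429 held 69.0% to 84.4% in 6 libraries but 15.1% in control pre-Baso replicate 1 and 21.3% in Nfil3-deficient pre-Baso replicate 2. In those 2 libraries ENSMUST00000081554, which ends 694 bases earlier, took 71.6% and 45.4%, against at most 1.25% in the other 6.

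**Figure D4:**
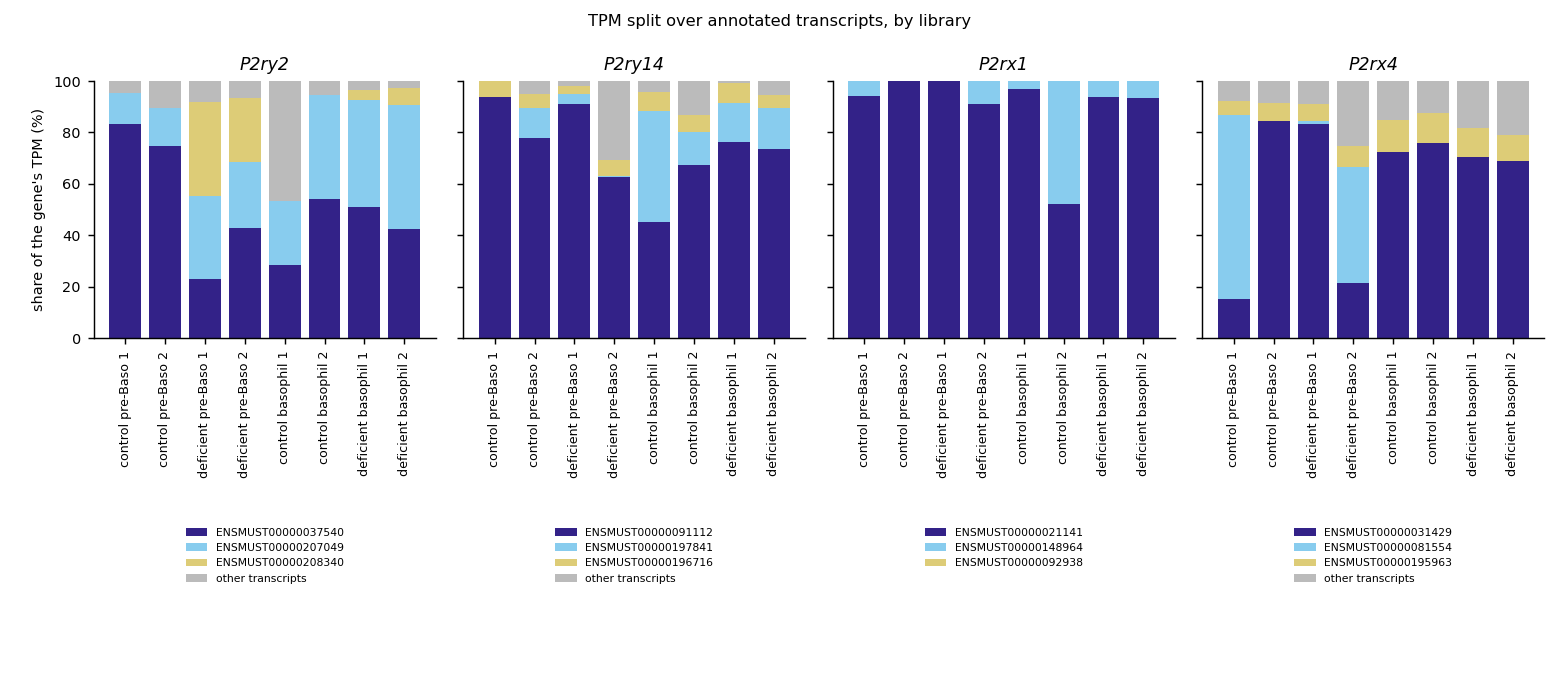
Share of a gene's TPM in percent (vertical axis, 0 to 100) taken by the 3 transcripts with the highest mean share and by all others (grey), in each of the 8 libraries (horizontal axis), for 4 receptor genes. The leading transcript of P2rx4 drops to 15.1% and 21.3% in 2 pre-Baso libraries, and that of P2rx1 to 52.1% in control basophil replicate 2.

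Around these 8 genes, 66 other genes of nucleotide signalling were examined, of which 41 passed the filter. They were listed by their known function and without use of their direction, but with earlier results of these data known. They were tested with limma, with adjustment over all 12511 genes, and the p-values do not allow for that choice. In control mice 5 were higher and 4 lower in basophils than in pre-Baso (9 of 41, or 22.0%, against 22.6% of all genes), and their median difference was 0.26, with 25 of 41 above 0. In Nfil3-deficient mice 2 were higher and 2 lower (4 of 41, or 9.76%, against 10.9%), with a median of 0.29. These shares were near those of all genes. Between genotypes 0 of 41 were called by limma in pre-Baso and 0 in basophils, with 3 and 2 at an unadjusted p under 0.05 (against 4.38% and 8.51% of all genes), and for the difference of the genotype effects 0 were called and 0 reached an unadjusted p under 0.05 (against 5.51%).

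Other receptors of the families were nearly silent. Of 4 other P2Y receptors, P2ry4, P2ry12 and P2ry13 had at most 0.482 TPM. P2ry6, a UDP receptor, passed the filter through 2 basophil libraries, 4.45 TPM in control basophil replicate 1 and 1.66 TPM in Nfil3-deficient basophil replicate 1, against 0 to 0.372 TPM elsewhere. Those were also the 2 libraries with the highest monocyte and macrophage marker sums, 175 and 141 TPM, and the part of those cells in the result was not tested. None of the 4 other P2X channels (P2rx2, P2rx3, P2rx5 and P2rx6) exceeded 0.230 TPM. Among the adenosine receptors, which read the product of ATP breakdown, Adora2b was the most abundant with 16.1 to 31.8 TPM. Adora3, known for its part in mast cell responses to adenosine, had 3.45 to 6.58 TPM, Adora2a had 0.191 to 1.58 TPM, and Adora1 was listed at 0. None of the adenosine receptors was called in a contrast.

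Of 19 other ectonucleotidases 7 passed the filter, and Enpp5 was the 1 called (1 of 7, against 22.6% of all genes in that comparison). Enpp5 fell by 0.72 ± 0.20 (SE) from pre-Baso to basophils in control mice, from 5.25 ± 1.04 to 2.77 ± 0.412 TPM (SD, n = 2; limma adjusted p = 0.0342). Nt5e (CD73), which makes adenosine from AMP, had at most 0.201 TPM, and Entpd2, Entpd8, Enpp2, Enpp7 and Alpl were listed at 0 in all libraries. The family members that were present, Cant1, Entpd5, Entpd4, Entpd7, Enpp4 and Entpd6, stayed between 1.31 and 6.94 TPM and include enzymes of the secretory pathway. Of 10 genes for nucleotide release and nucleoside transport, 6 passed. Gja1 was the 1 called (1 of 6, in Nfil3-deficient mice, against 10.9% of all genes). The hemichannel gene Panx1 had 0.810 to 1.48 TPM and the vesicular nucleotide transporter Slc17a9 had 1.77 to 3.41 TPM. Lrrc8a, a subunit of volume-regulated anion channels, had 5.95 to 12.5 TPM. Gja1, a connexin, fell by 0.74 ± 0.19 (SE) in Nfil3-deficient mice, from 1.79 ± 0.0788 to 0.674 ± 0.206 TPM (SD, n = 2; limma adjusted p = 0.0447).

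Purine salvage enzymes, which recycle nucleosides inside the cell, held 3 of the called genes in control mice, all lower in basophils (3 of 5, against 22.6% of all genes called and 10.0% called lower). Their median difference was -0.73, where all genes had 0.08. Hprt, which recycles hypoxanthine and guanine, had 19.0 and 23.8 TPM in control pre-Baso and 7.77 and 9.04 TPM in control basophils, with no overlap. It fell by 1.25 ± 0.22 (SE; limma adjusted p = 0.00554). Pnp, the purine nucleoside phosphorylase, fell by 0.73 ± 0.19 (limma adjusted p = 0.0292) and Ada, the adenosine deaminase, by 0.89 ± 0.25 (limma adjusted p = 0.0365). In Nfil3-deficient mice 1 of 5 was called, against 10.9% of all genes. This was Ada, which fell by 0.98 ± 0.25 (limma adjusted p = 0.0434), from 4.76 ± 0.454 to 1.93 ± 0.116 TPM (SD, n = 2). Aprt, the adenine salvage enzyme, and Adk, the adenosine kinase, were the most abundant with 119.9 to 186.3 and 36.8 to 55.3 TPM, and neither was called.

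Of 15 genes for receptor coupling and calcium release 14 passed, and 3 of the 14 (21.4%) rose with maturation in control mice, against 22.6% of all genes called and 12.6% called higher. Gna15, a G protein alpha subunit of haematopoietic cells that links many receptors to phospholipase C, had 11.9 and 20.7 TPM in control pre-Baso and 30.3 and 33.6 TPM in control basophils. It rose by 0.98 ± 0.25 (SE; limma adjusted p = 0.0242). The inositol trisphosphate receptors Itpr2 and Itpr3, calcium channels of the endoplasmic reticulum, rose by 0.72 ± 0.18 (limma adjusted p = 0.0253) and 0.75 ± 0.18 (limma adjusted p = 0.0185). In Nfil3-deficient mice 0 of 14 were called by limma, against 10.9% of all genes, with 7 at an unadjusted p under 0.05, against 28.1% of all genes. The inhibitory G protein genes Gnai2 (65.4 to 89.5 TPM) and Gnai3 (25.5 to 36.3 TPM), the phospholipase gene Plcb2 (7.70 to 14.9 TPM) and the calcium channel gene Orai1 (9.34 to 15.4 TPM) were expressed throughout and not called.

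Inflammasome genes downstream of P2rx7 held the largest log2 change with maturation among the 41 tested genes. Of these 5 genes 2 were called in each genotype, both higher, against 12.6% of all genes called higher in control and 6.79% in Nfil3-deficient mice. Nlrp3, the sensor, had 0.907 and 1.21 TPM in control pre-Baso, 1.33 and 0.983 TPM in Nfil3-deficient pre-Baso, 7.22 and 6.31 TPM in control basophils, and 5.44 and 4.72 TPM in Nfil3-deficient basophils. Populations were far apart and genotypes overlapped in pre-Baso only. Nlrp3 rose by 1.92 ± 0.19 (SE) in control mice (6.38-fold, limma adjusted p = 0.000561) and by 1.50 ± 0.19 in Nfil3-deficient mice (4.39-fold, limma adjusted p = 0.00496). Gsdmd, the pore protein gasdermin D, rose by 0.58 ± 0.16 (limma adjusted p = 0.0318) and 0.75 ± 0.16 (limma adjusted p = 0.0241). Pycard, the adaptor ASC, had 7.91 to 15.4 TPM, Casp1 0.839 to 2.44 TPM and Il1b 0 to 1.99 TPM, and none of these was called. P2rx7 itself stayed at 4.54 to 10.2 TPM. Neutrophil, monocyte and erythroid marker sums were also higher in every basophil library than in every pre-Baso library. T and NK cell marker sums went the other way. Called higher in control mice were 6 of 10 neutrophil and 3 of 9 tested monocyte markers, against 12.6% of all genes. Erythroid markers had 4 of 6 tested called higher there, and eosinophil markers 2 of 8. In Nfil3-deficient mice these counts were 3 of 10, 1 of 9, 0 of 6 and 2 of 8, against 6.79% of all genes. The basophil marker sum was lower in every basophil library than in every pre-Baso library, but most of it was Prss34. Prss34 had 18974 to 25020 TPM in pre-Baso and 2667 to 9494 TPM in basophils. The 10 basophil markers went both ways, with 3 called higher and 4 lower in control mice. For Nfil3-deficient mice these counts were 3 and 3. The part of these markers in the maturation differences, Nlrp3 and Gsdmd included, was not tested.

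The 9 calls in control mice became 2 and 5 without control pre-Baso replicate 1 or 2 and 3 and 5 without control basophil replicate 1 or 2. In Nfil3-deficient mice the 4 calls became 0 and 1 without Nfil3-deficient pre-Baso replicate 1 or 2 and 1 without either Nfil3-deficient basophil library. Nlrp3 and Hprt in control mice were called under all 18 alternatives. Each other call was lost without at least 1 library: Gna15 and Itpr3 without control pre-Baso 1 or either control basophil library, and Itpr2, Gsdmd, Enpp5 and Pnp (control mice) without any 1 of the 4 control libraries. Ada was lost in control mice without any 1 pre-Baso library or control basophil 1 and, in Nfil3-deficient mice, without any 1 pre-Baso or Nfil3-deficient basophil library. Nlrp3 was lost in Nfil3-deficient mice without Nfil3-deficient pre-Baso 1, Gsdmd there without any 1 of the 4 Nfil3-deficient libraries, and Gja1 without any 1 of the 8.

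**Figure D5:**
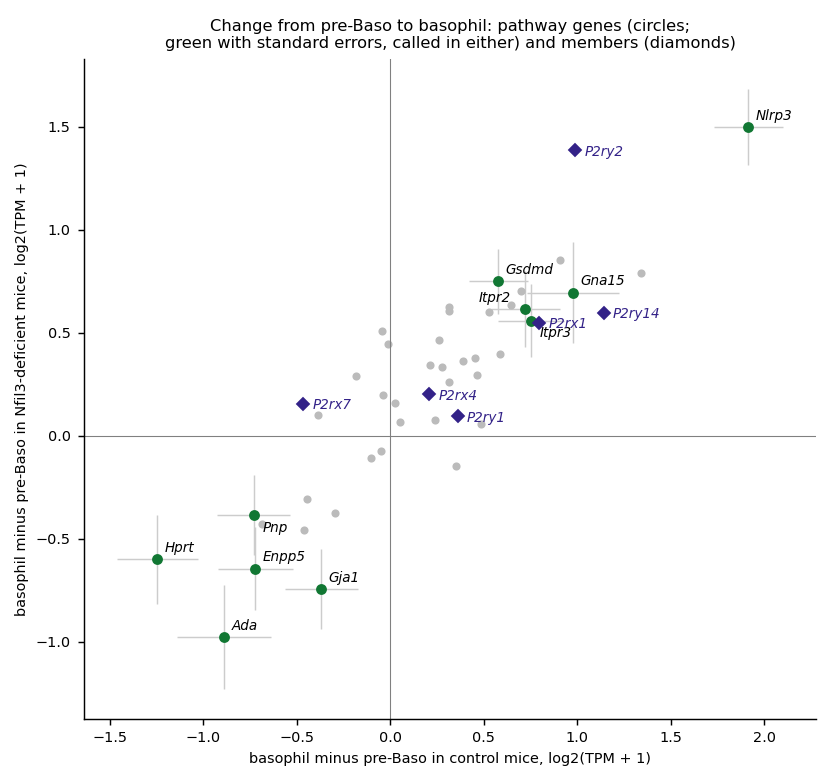
Difference in log2(TPM + 1) between basophils and pre-Baso in control mice (horizontal axis) and in Nfil3-deficient mice (vertical axis) for 41 pathway genes (circles, green with standard errors where called in either genotype) and 6 of the receptors (diamonds). Nlrp3 is at the upper right (1.92 and 1.50), the salvage genes Ada, Hprt and Pnp are at the lower left, and P2ry2 has the greater value in Nfil3-deficient mice.

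For each gene whose 4 group means of log2(TPM + 1) spanned at least 1, the 3 genes with the nearest pattern were found among 8773 tested protein-coding genes, by the root mean square (RMS) difference of mean-centred log2(TPM + 1) over the 8 libraries. P2ry2 spanned 2.15, and its nearest genes were Trpm2 (RMS 0.282), Gda (0.305) and Dmac2 (0.313). Trpm2, a calcium-permeable cation channel, had 2.36 and 2.94 TPM in control and 2.76 and 3.42 TPM in Nfil3-deficient pre-Baso. These overlapped, unlike those of P2ry2, and the genotypes of Dmac2 overlapped there too. Trpm2 had 6.37 and 5.05 TPM in control and 9.63 and 11.3 TPM in Nfil3-deficient basophils. Gda, which encodes guanine deaminase, had 1.56 and 1.71 TPM in control and 2.41 and 2.44 TPM in Nfil3-deficient pre-Baso. Its basophil values were 3.84 and 3.97 TPM in control and 5.64 and 6.22 TPM in Nfil3-deficient mice. P2ry14 spanned 1.14 and was closer to its neighbours Klf11 (RMS 0.0757), Tnfsf14 (0.0783) and Apobr (0.0865). P2rx1 spanned 1.05 and was nearest to Ubn1 (RMS 0.0949), Fyn (0.102) and Rora (0.112). P2ry1, P2rx4 and P2rx7 spanned less than 1 and were not matched.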

How the data were processed

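RNA sequencing of 8 libraries was analysed from the authors' deposited transcript tables. Per the labels' protocols, RNA came from sorted cells and libraries were made with a SMARTER mRNA-seq kit. Reads were aligned to mm10 with HISAT2, per the submitters' processing notes (version not given in the sources used here), and annotated transcripts were quantified with StringTie 2.1.4 against Ensembl release 101 with no strand option, per the file headers. Other values in the deposited tables are FPKM and read coverage, per the file headers. TPM was summed per gene, and Enpp3 was matched by gene identifier where its name field differed. In R 4.3.3, limma 3.58.1 fitted 4 group means to log2(TPM + 1) over 8 libraries (4 residual degrees of freedom, trended variance) for genes that reached 1 TPM in at least 2 libraries, with Benjamini-Hochberg adjustment within each of 5 contrasts. The fit was also run on data simulated from the group means and spread of these libraries, and the outcome is not given here. The 8 genes and all lists were chosen with earlier results of these data known. The 66 pathway genes and 9 marker lists were fixed without use of their direction, and pathway genes were named if called in a contrast or among the 12 with the highest mean TPM, with others given as ranges. The labels tie same-numbered replicates together by nothing but the number. Alternatives were rescaling to protein-coding genes, quantile normalization, FPKM, pseudocounts of 0.1 and 5, no filter, a filter at 5 TPM, robust moderation, only the 2 groups compared, a replicate block and leaving out each library. Protein sequences were not used here.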

Additional observations from a re-analysis of the deposited data

How the results depend on the processing

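The number of pathway genes called between pre-Baso and basophils in control mice, 9, was 2 with no filter on low values, 4 with only the 2 groups compared, and 2 to 9 when 1 library was left out. In Nfil3-deficient mice the number, 4, was 7 after quantile normalization, 1 with no filter, 2 with only the 2 groups compared, and 0 to 3 when 1 library was left out. With the replicate block the counts were 9 and 3, with 0 in each genotype contrast, and over all genes 2778, 1290, 8, 8 and 0 in the 5 contrasts. Deviations of same-numbered libraries correlated at -0.054 to 0.202 between groups, and nothing in the labels pairs them. Neutrophil and eosinophil marker sums were higher in replicate 1 than in replicate 2 in each of the 4 groups. The other marker lists kept no single order. Whether same-numbered libraries shared an animal or day was not tested. Over all genes the calls ranged from 1397 to 3419 for maturation in control mice and 20 to 2015 in Nfil3-deficient mice, 3 to 23 and 4 to 19 for genotype in pre-Baso and basophils, and 0 to 3 for the difference of genotype effects. P2ry2 kept the sign of its 5 differences under every alternative, with the genotype difference in basophils between 0.72 (pseudocount of 5) and 1.39 (rescaling to protein-coding genes). P2ry14 and P2rx1 also kept theirs, while P2ry1, P2rx4 and P2rx7 changed sign in some where libraries overlapped or differences were near 0. Transcript share tests say nothing of stability, since 1 gene alone could not pass them. Depth limits Entpd1 and Enpp3 most, and with 2 libraries per group small differences are not detectable. The causes of these shifts were not tested.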
